A study of Mus musculus with 8 samples.

Results

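The HOX genes of the mouse were followed through 2 lists of H3K27ac peaks from CD8+ T cells. All 39 protein-coding RefSeq genes whose symbol is Hoxa, Hoxb, Hoxc or Hoxd with a number were taken, out of 21631 protein-coding genes on the chromosomes that the lists hold. The cells came from spleen and lymph node of C57BL/6 mice, were activated through CD3 and CD28, and were exposed for 48 h either to EnPGC-1, which the labels class among PIPs, or to the vehicle DMSO. H3K27ac, acetylation of histone H3 at lysine 27, is found at active promoters and enhancers. The series has 8 samples: 2 H3K27ac samples of each treatment, 2 IgG samples of DMSO-treated cells and 1 input of each treatment. The peak files give 1 list per treatment, so there are no replicate values, no spread and no test between treatments, and every number here describes these 2 lists. Values under DMSO or under EnPGC-1 refer to the list of that treatment. Nothing in the labels says whether the samples came from separate animals or cultures.

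HOX genes encode homeodomain transcription factors that give cells their position along the body axis. They lie in 4 clusters, and their order along the chromosome follows the order of their expression from head to tail. Genes of the same number in different clusters are paralogues. Polycomb complexes keep the clusters silent in cells that do not use them, and MLL complexes keep them active in cells that do. In blood, HOX genes of the A cluster are known from stem and progenitor cells, and from leukaemias with rearranged MLL. Paralogues 1 to 3 are called anterior below, 4 to 8 central and 9 to 13 posterior.

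The promoters of 3 HOX genes show the patterns found. They were chosen after their values were seen. Each line gives the 250 bases before the transcription start, 5′ to 3′ on the strand of the gene, from RefSeq promoters on GRCm38.p6 (mm10), with CG dinucleotides in capitals.
Hoxd12, chr2:74674763-74675012, plus strand: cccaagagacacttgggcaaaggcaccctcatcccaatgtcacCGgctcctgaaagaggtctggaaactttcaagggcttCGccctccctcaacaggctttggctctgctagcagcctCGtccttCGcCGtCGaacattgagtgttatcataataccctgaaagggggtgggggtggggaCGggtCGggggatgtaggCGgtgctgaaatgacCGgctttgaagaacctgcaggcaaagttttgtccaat
Hoxd8, chr2:74704365-74704614, plus strand: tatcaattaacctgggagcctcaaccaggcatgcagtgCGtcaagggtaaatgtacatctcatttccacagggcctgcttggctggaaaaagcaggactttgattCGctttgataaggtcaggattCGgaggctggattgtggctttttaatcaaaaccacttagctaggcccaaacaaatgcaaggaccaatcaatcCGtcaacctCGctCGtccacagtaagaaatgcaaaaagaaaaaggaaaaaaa
Hoxa2, chr6:52164832-52165081, minus strand: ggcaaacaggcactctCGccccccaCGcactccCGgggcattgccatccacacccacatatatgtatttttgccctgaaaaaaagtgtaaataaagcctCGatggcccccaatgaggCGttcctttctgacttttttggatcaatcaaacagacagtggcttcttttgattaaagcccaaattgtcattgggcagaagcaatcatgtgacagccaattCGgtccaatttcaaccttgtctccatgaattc
All 250 bases at Hoxd12 lay under an interval of both lists. All 250 bases at Hoxd8 lay under an EnPGC-1 interval and 0 under a DMSO interval. At Hoxa2, 0 of the bases lay under an interval of either list, although EnPGC-1 intervals lay inside the gene.

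All 39 HOX genes had an interval within 1 kb of a gene end under EnPGC-1, and 26 of 39 had one under DMSO. Of all protein-coding genes, 72.8% were marked in this way under EnPGC-1 and 41.6% under DMSO. Both lists marked 26 HOX genes, against 39.4% of all genes. The EnPGC-1 list alone marked 13, which is 33.3% of the HOX genes and close to the 33.4% of all genes. The DMSO list alone marked 0, against 2.19% of all genes. Among genes without a DMSO interval, 13 of 13 HOX genes and 57.2% of all genes had an EnPGC-1 interval. The EnPGC-1 list holds 3.11 times as many intervals as the DMSO list, and the lists were therefore also compared at equal numbers of highest-scoring intervals. The EnPGC-1 list then marked 25 HOX genes and the DMSO list 26, beside 40.5% and 41.6% of all genes. The lowest EnPGC-1 score kept was 4.21. Hoxa11 and Hoxb3 had a highest EnPGC-1 score of 4.21 and were not counted as marked under EnPGC-1. Their calls, and the order of 25 and 26, therefore rest on how tied scores were cut. Then 19 HOX genes were marked in both lists, 6 under EnPGC-1 alone, 7 under DMSO alone and 7 in neither. Of all 21631 genes, 5428 were then marked in both lists and 9288 in neither. The shares of all genes in 1 list alone were 15.5% and 16.5%, close to those of the HOX genes. With each list limited to scores at or above its own median, 30 HOX genes were marked under EnPGC-1 and 19 under DMSO, beside 52.5% and 28.8% of all genes. At that limit 13 HOX genes were marked under EnPGC-1 alone and 2 under DMSO alone, beside 30.6% and 6.98% of all genes.

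The HOX genes were spread unevenly over the 13 paralogue groups under DMSO. In that list 13 of 16 posterior genes were marked, 9 of 15 central genes and 4 of 8 anterior genes, beside 41.6% of all genes. The lead of posterior over central genes was lost with scores limited to the list median or above, where 28.8% of all genes were marked. The posterior genes Hoxa11, Hoxb9, Hoxc9, Hoxc12 and Hoxd9 and the anterior genes Hoxb2 and Hoxd1 then lost their DMSO mark. No central gene did, but the highest DMSO score of Hoxa5 and Hoxa6, 2.16, only equalled the list median. The same held for the posterior gene Hoxc11, which also kept its mark. Over the genes with 1 kb on each side, DMSO intervals covered 10.2% of posterior, 9.10% of central and 6.15% of anterior bases. In the EnPGC-1 list these shares were 32.5%, 28.2% and 24.6%, in the same order. The order did not hold in every cluster. In HoxA the central genes had more than the posterior ones, with 16.0% against 15.5% under DMSO and 47.8% against 36.8% under EnPGC-1. In HoxB the central genes had a larger DMSO share than the posterior ones, with 13.8% against 8.46%, and in HoxD the anterior genes had 7.66% against 4.65% for the central ones. Gene models of Hoxa3, Hoxb3 and Hoxd3 run over neighbouring HOX genes, so their bases are partly shared. Intervals were shared as well: 3 of the 35 DMSO intervals and 5 of the 78 EnPGC-1 intervals at HOX gene ends served more than 1 gene.

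**Figure D1:**
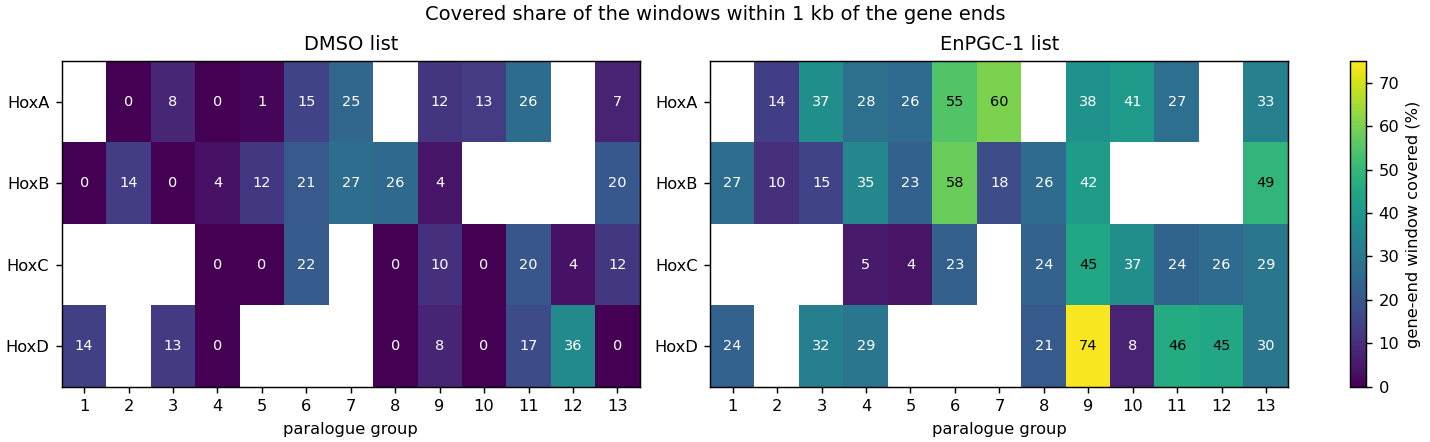
Each cell gives the percent of bases within 1 kb of the ends of 1 HOX gene that lay under listed intervals, by cluster (rows) and paralogue group (columns), under DMSO (left) and the EnPGC-1 list (right); white cells have no gene or, for 1 gene, are not drawn. The genes that read 0 on the left are above 0 on the right, where the values run from 3.82% at Hoxc5 to 74.3% at Hoxd9.

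Of the anterior genes, Hoxa2 and Hoxb1 were far from DMSO intervals. Hoxb1 patterns the hindbrain, and Hoxa2 the second branchial arch. Hoxa2 (chromosome 6, 52162417 to 52164831) lay 5830 bp from the nearest DMSO interval and had 2 EnPGC-1 intervals at its ends, with a score of up to 5.87. At Hoxb1 (chromosome 11, 96365746 to 96368254) the nearest DMSO interval was 11177 bp away, and 2 EnPGC-1 intervals reached a score of 5.58. Both genes and the central gene Hoxa4 were among the 4 HOX genes with 0 DMSO-covered bases within 5 kb, where 30.1% of all genes had 0. These 3 were among the 6 genes that the EnPGC-1 list alone still marked at equal numbers of intervals. Scores are the authors' values per peak, taken here to be −log10 q, and rank peaks within 1 list only.

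The other anterior genes differed among themselves. Hoxa3, which is needed for thymus and parathyroid formation, was marked in both lists, by a DMSO interval with a score of 3.03 and 4 EnPGC-1 intervals of up to 7.05. Its DMSO interval at the gene end overlapped no EnPGC-1 interval. Hoxd3 had the highest DMSO score of any HOX gene end, 4.43, and an EnPGC-1 score of 5.30. Hoxb2 and Hoxb7 were the 2 HOX genes with more DMSO than EnPGC-1 bases in the gene-end windows, 551 against 417 and 1086 against 713. The EnPGC-1 list covered more of these windows at the other 37 genes, against 67.7% of all genes, and the DMSO list more at 7.36% of all genes. Hoxb3 was marked under EnPGC-1 alone, and Hoxd1 in both, with scores of 1.76 and 3.04. At equal numbers of intervals Hoxb3 was marked in neither list, and Hoxb2 and Hoxd1 under DMSO alone. The EnPGC-1 intervals of Hoxb2 and Hoxd1, with scores of 3.59 and 3.04, were removed by the cut, which left the DMSO list whole. The EnPGC-1 score of Hoxb3, 4.21, equalled the lowest score kept, so its call rests on how ties were cut.

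Among central genes, Hoxa5, Hoxa6 and Hoxa7 formed a stretch marked in both lists. Hoxa5 acts in lung and axial patterning, and Hoxa7 and Hoxa9 are known targets of MLL. Hoxa7 had 24.9% of its gene-end windows covered under DMSO and 60.1% under EnPGC-1. At Hoxa6 the shares were 15.0% and 54.7%. Hoxa5 had 1.00% and 26.2%, and its DMSO intervals reached only 40 bases into the windows. In HoxB, Hoxb6 had 20.8% and 57.9%, and the widest EnPGC-1 interval of the 4 clusters, of 2999 bp with 6 summits, lay at the ends of Hoxb5 and Hoxb6. Hoxb4, known for expanding blood stem cells, had a DMSO score of 3.17 and an EnPGC-1 score of 5.46. Hoxb8, whose forced expression keeps myeloid progenitors growing, had nearly equal shares, 25.7% and 26.2%.

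Of the 15 central genes, 6 were marked under EnPGC-1 alone, beside 33.4% of all genes: Hoxa4, Hoxc4, Hoxc5, Hoxc8, Hoxd4 and Hoxd8. Hoxd8 (chromosome 2, 74704615 to 74707933) lay 3578 bp from the nearest DMSO interval, and its EnPGC-1 interval scored 5.87. It stayed marked under EnPGC-1 at equal numbers of intervals, as did Hoxa4. Hoxc4, Hoxc5, Hoxc8 and Hoxd4, with EnPGC-1 scores of 2.68, 2.91, 3.75 and 2.11, were then marked in neither list. Hoxc5 had the smallest EnPGC-1 share of any member, 153 covered bases, and its nearest EnPGC-1 interval began 847 bp from the gene end. At Hoxd4 the nearest DMSO interval was 1001 bp from a gene end, just outside the window.

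Posterior genes, which pattern limbs, the lower trunk and the urogenital tract, were marked in both lists in 13 of 16 cases, against 39.4% of all genes. Hoxd12 had the largest DMSO-covered share of the family, 1431 bases or 35.8% of its windows, beside 45.1% under EnPGC-1. Hoxd9 had the largest EnPGC-1 share, 2973 bases or 74.3%, beside 310 bases or 7.75% under DMSO. Hoxb9 carried the highest EnPGC-1 score at a HOX gene end, 7.53, where the DMSO score was 1.78. Hoxa9, a leukaemia gene that acts with Meis1, had 2 DMSO intervals of up to 2.88 and 3 EnPGC-1 intervals of up to 5.30. Hoxa13 and Hoxd13 shape the digits. Hoxa13 was marked in both lists, with scores of 2.58 and 2.95, and Hoxd13 under EnPGC-1 alone, with 2.68. Hoxb13, known from prostate and tail development, had scores of 2.34 and 3.18, and Hoxc13, a hair follicle gene, 3.50 and 5.30. At equal numbers of intervals Hoxa11, Hoxa13, Hoxb13, Hoxc11 and Hoxc12 were marked under DMSO alone. That setting cut the EnPGC-1 list and left the DMSO list whole. In the full lists each of these genes was marked under EnPGC-1 as well, with scores from 2.95 at Hoxa13 to 4.21 at Hoxa11. The EnPGC-1 score of Hoxa11, 4.21, equalled the lowest score kept, so its call rests on how ties were cut.

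The 3 posterior genes marked under EnPGC-1 alone were Hoxc10, Hoxd10 and Hoxd13. At equal numbers of intervals Hoxc10 was still marked under EnPGC-1 alone, and Hoxd10 and Hoxd13 in neither list. Hoxc10, a gene of lumbar motor neurons, lay 3924 bp from the nearest DMSO interval and had an EnPGC-1 score of 4.60. For Hoxd10 the call depends on the gene model: its RefSeq span begins at an upstream start, and at the listed promoter inside that span 159 of 300 bases lay under a DMSO interval and all 300 under an EnPGC-1 interval. Hoxc4 was a like case, with 225 and 244 of 300 bases at a promoter inside the gene. The highest-scoring DMSO interval of the 4 clusters also lay at an inner promoter, that of Hoxa10 (chromosome 6, 52234702 to 52235168). Its score of 6.33 stood at percentile 99.4 of the DMSO list, and it covered 279 of the 300 promoter bases.

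**Figure D2:**
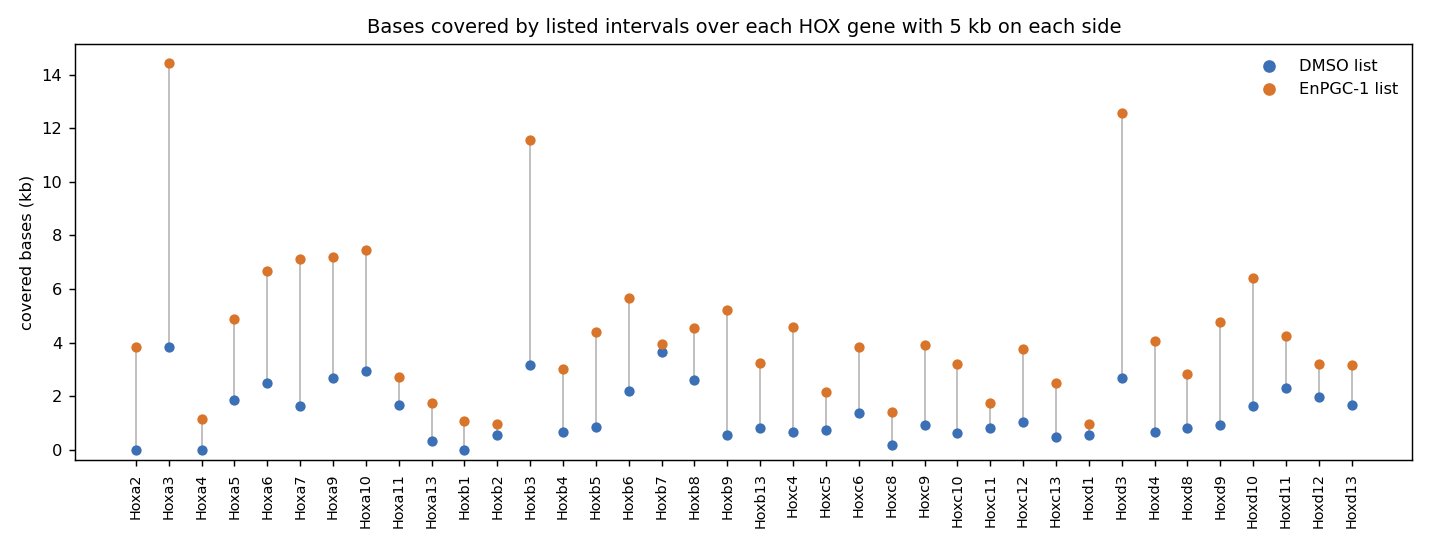
Points give the bases covered by DMSO (blue) and EnPGC-1 (orange) intervals over each HOX gene with 5 kb on each side, in kb. The orange point is above the blue one at every gene drawn, with 1 of the 39 not drawn, from 945 against 551 bases at Hoxb2 to 14425 against 3837 at Hoxa3, which has the longest gene model.

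Within 5 kb of the gene, more bases were covered under EnPGC-1 at 39 of 39 HOX genes, against 84.8% of all genes, and DMSO intervals covered more at 0, against 2.83%. These windows overlap between neighbouring HOX genes, so the same intervals count for several genes. The 39 genes are therefore not separate observations. The median covered length was 925 bases under DMSO and 3844 under EnPGC-1 over the HOX genes, and 730 and 3139 over all genes. The median difference was 2582 bases for HOX genes and 2277 for all genes. The smallest difference was 305 bases at Hoxb7, where DMSO intervals covered 3645 bases. The largest were 10588 at Hoxa3 and 9893 at Hoxd3, whose gene models run over neighbours.

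All 4 clusters were richer in intervals than most of the genome, in both lists. From the first to the last HOX base, DMSO intervals covered 6.53% and EnPGC-1 intervals 23.1% of 492097 bases in all. Over the chromosomes up to the last interval, the shares were 1.57% and 6.28%. The clusters held 65 DMSO and 145 EnPGC-1 intervals. The ratio of covered bases between the lists was 3.53 in the clusters and 4.00 in the genome, and the ratio of interval numbers 2.23 and 3.11. With equal numbers of intervals, the ratio of covered bases was 1.80 in the clusters and 1.65 in the genome.

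**Figure D3:**
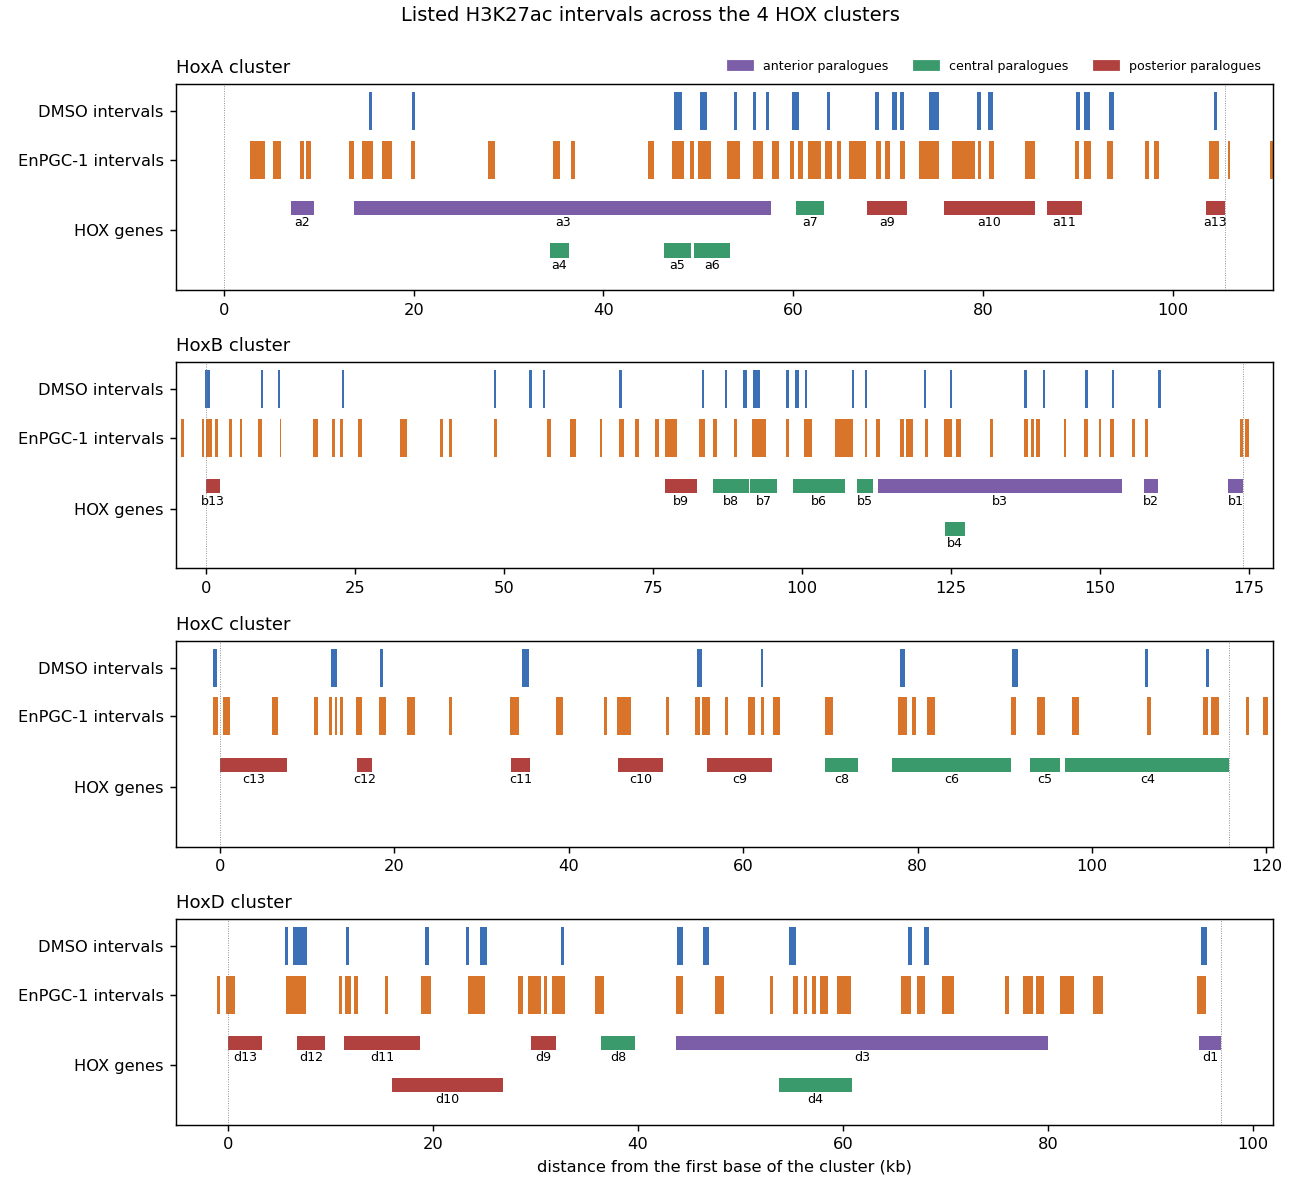
Distinct DMSO (blue) and EnPGC-1 (orange) intervals are drawn to scale along each HOX cluster, with HOX genes below coloured by paralogue class; the x axis is the distance in kb from the first base of the cluster. 1 HOX gene is not drawn. DMSO intervals are missing over Hoxa2, Hoxa4 and several other genes. Among these, Hoxb9, Hoxc12, Hoxc13 and Hoxd9 have a DMSO interval within 1 kb of an end. Between the dotted lines, which mark the cluster ends, the EnPGC-1 rows hold 30 to 46 intervals and the DMSO rows 9 to 24.

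HoxA, on chromosome 6, was the most densely covered. DMSO intervals covered 8.97% of it and EnPGC-1 intervals 30.6%. These levels stood at percentiles 96.9 and 96.1 of 26302 genome bins of 100 kb. Its longest stretch without a DMSO interval was 27.3 kb and held Hoxa4. HoxD, on chromosome 2 from 74668225 to 74765142, had 7.05% and 25.7%, at percentiles 94.6 and 94.1. HoxB, on chromosome 11 from 96194316 to 96368254, had 6.35% and 20.5%, at percentiles 93.4 and 91.1. HoxC, on chromosome 15 from 102921131 to 103036856, was the sparsest, with 4.15% and 17.8%, at percentiles 88.2 and 89.1. Its ratio between the lists was the highest, 4.30, against 3.65 in HoxD, 3.41 in HoxA and 3.23 in HoxB. At equal numbers of intervals that order turned: the ratio was lowest in HoxC, 1.27, and 2.06 in HoxA.

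The clusters stood out from their surroundings to different degrees. The 250 kb on each side of HoxD had 0.506% of bases covered under DMSO and 3.06% under EnPGC-1, far below the cluster itself. Around HoxA the flanks had 1.38% and 5.31%, and around HoxB 1.82% and 9.41%. HoxC differed least from its flanks, which had 2.00% and 10.4%. Over all flanks together the ratio of covered bases between the lists was 4.95, against 3.53 inside the clusters.

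**Figure D4:**
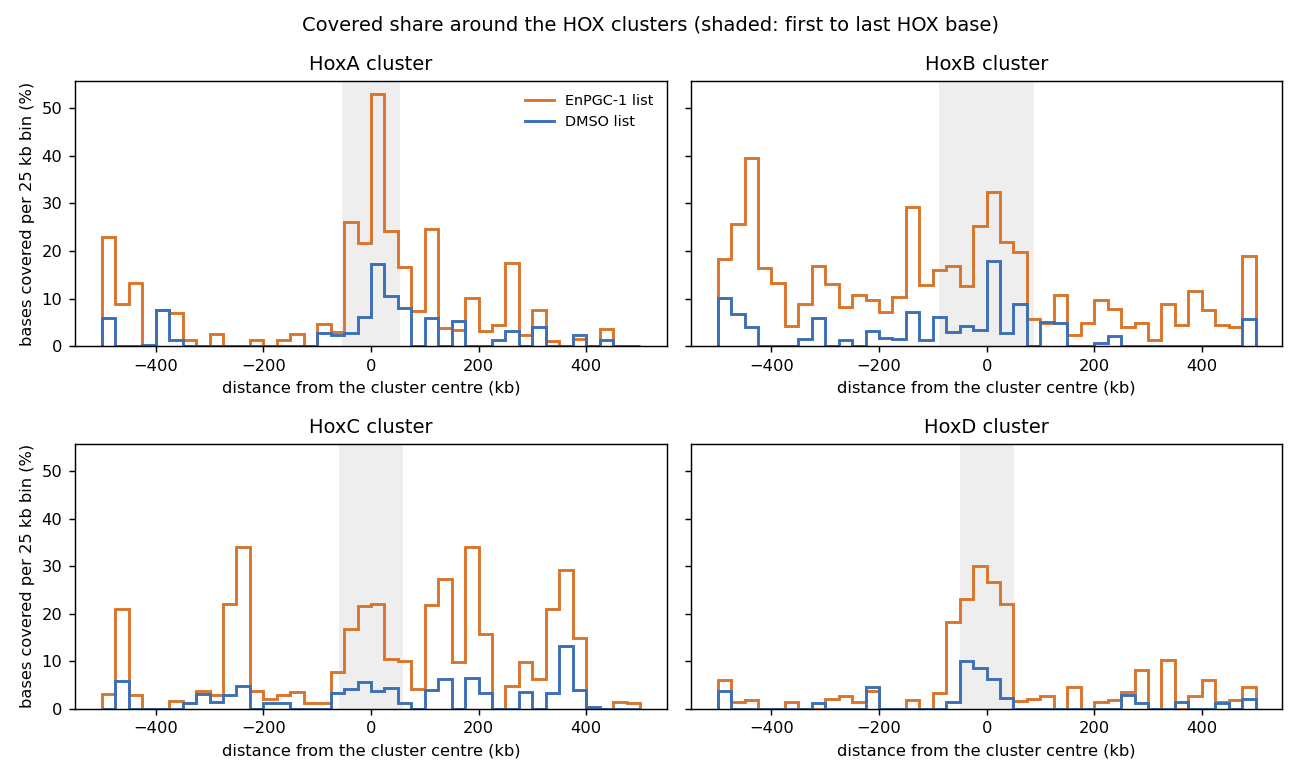
Lines give the percent of bases covered in 25 kb bins up to 500 kb from the centre of each HOX cluster (shaded) in the DMSO (blue) and EnPGC-1 (orange) lists. HoxD rises from flanks with 3.06% EnPGC-1 coverage within 250 kb, whereas the highest EnPGC-1 bin around HoxC, 34.0% at 175 kb from its centre, is above the 22.03% of the highest bin touching the cluster.

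The median scores of intervals in the clusters were near those of the whole lists. DMSO intervals there had a median score of 2.16, the same as the whole DMSO list, and EnPGC-1 intervals 3.75 against 3.64. By cluster, the EnPGC-1 median ran from 3.72 in HoxD to 4.10 in HoxA. The highest EnPGC-1 score was 8.34, reached inside the Hoxd3 gene model and between Hoxb13 and Hoxb9. It stood at percentile 98.7 of the EnPGC-1 list, whose highest score was 541. EnPGC-1 intervals in the clusters were wide, with a median of 695 bp against 499 bp in the whole list, and 31.0% against 20.7% held more than 1 summit. DMSO intervals had a median of 405 bp against 431 bp. Of the DMSO intervals in the clusters, 54 of 65 overlapped an EnPGC-1 interval (83.1%, against 73.7% of the whole list). Of the EnPGC-1 intervals, 55 of 145 overlapped a DMSO interval (37.9%, against 23.1%). HoxB held 7 of the 11 DMSO intervals that overlapped none.

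Promoter windows of 300 bases, 250 before and 50 after the start, were given for 22 of the 39 HOX genes, with 24 starts. An interval touched 17 of the 24 under EnPGC-1 and 6 under DMSO, against 46.6% and 18.0% of 21045 promoters of all genes. Of those 6, 5 were touched in both lists and that of Hoxb8 under DMSO alone. The letters CG, which read the same on both strands, were counted in each window. HOX promoters held from 4 to 45 of them with a median of 14.5, and all promoters a median of 13. At least 1 was present in all 24 HOX promoters and in 95.5% of all promoters. Marking moved with this count over the whole genome. Counted per gene at its richest start, the median of the 22 HOX genes was 17.5. Genes with at least this many CG were marked in 52.5% of cases under DMSO and 88.5% under EnPGC-1. Genes with fewer were marked in 32.5% and 60.5%. The 22 HOX genes were marked in 15 and 22 cases. The part of CG content in the marking of HOX genes was not tested.

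Homeobox genes outside the clusters gave shares near those of the HOX genes. Of 75 such genes, which include the Dlx, Lhx, Nkx, Irx and Pou families of developmental regulators, 55 were marked at a gene end under DMSO (73.3%) and all 75 under EnPGC-1. Of all genes, 41.6% and 72.8% were marked. At equal numbers of intervals the counts of the 75 genes were 55 and 52, beside 41.6% and 40.5% of all genes. Alx4, a craniofacial and limb regulator, and Lhx4, a pituitary and motor neuron regulator, had the largest differences, 10709 and 10561 bases within 5 kb. Dlx6, a jaw and limb regulator, was the 1 gene of the 75 with fewer EnPGC-1 bases, 1005 against 3333. Of all genes, 2.83% had fewer. Of the 8 ParaHox, Cdx and Evx genes, 6 and 8 were marked (75% and 100%, beside 41.6% and 72.8% of all genes). Cdx1 and Cdx2 encode activators of HOX genes and had 2760 and 1464 covered bases under DMSO and 12878 and 6071 under EnPGC-1. Cdx4 had the lowest difference, 613 bases.

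**Figure D5:**
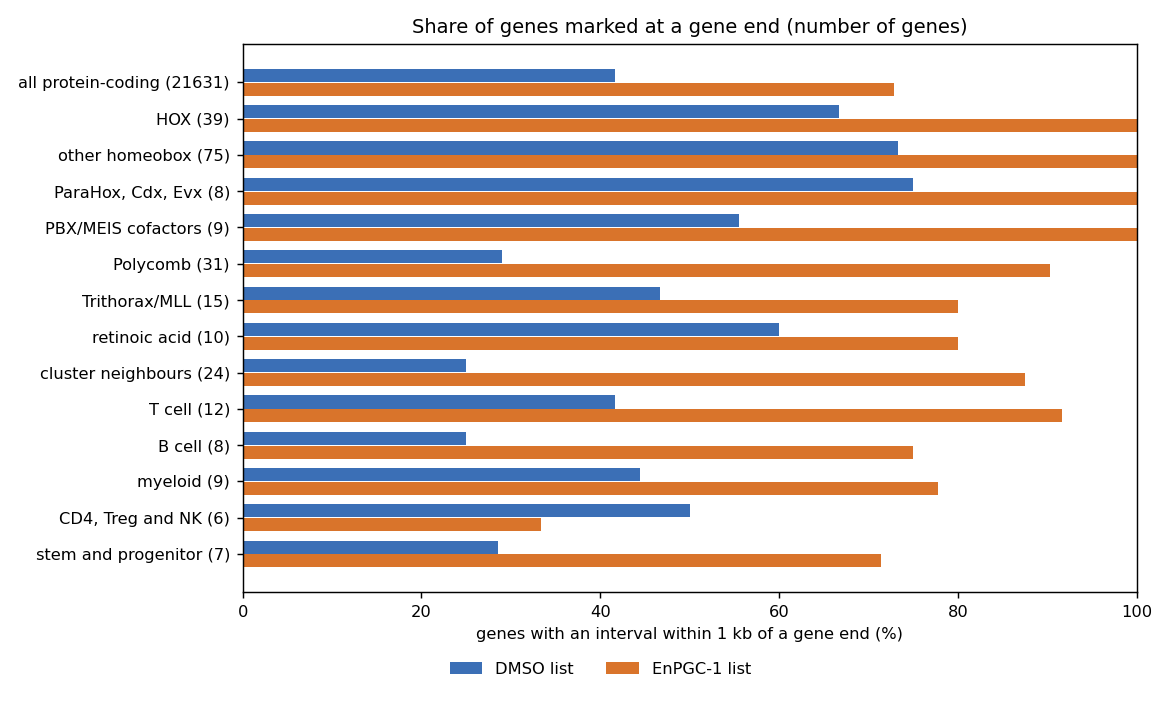
Bars give the percent of genes with an interval within 1 kb of a gene end in the DMSO (blue) and EnPGC-1 (orange) lists, for all protein-coding genes and for each gene list, with the number of genes in brackets. HOX genes reach 66.7% and 100%, other homeobox genes 73.3% and 100%, and all genes 41.6% and 72.8%.

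Genes that act with or on HOX proteins gave mixed values, to be read beside the 41.6% of all genes marked under DMSO and the 72.8% under EnPGC-1. Of the 9 PBX, MEIS and PKNOX genes, whose proteins bind DNA with HOX proteins, 5 were marked under DMSO (55.6%) and 9 under EnPGC-1 (100%). Pknox2 had a difference of 19750 bases, and Pbx3 the lowest, 2725. Of 31 Polycomb genes, 9 and 28 were marked, a DMSO share of 29.0%, below that of all genes, and an EnPGC-1 share of 90.3%, above it. Phc2 and Kdm2b had the largest differences, 19515 and 12905 bases, and Rbbp7 had 0 bases in both lists. Ezh2 and Phc1 were the other Polycomb genes marked in neither list. Of 15 Trithorax and MLL genes, 7 and 12 were marked (46.7% and 80.0%, near the shares of all genes), with the MLL gene Kmt2a in both lists. Kmt2d and the H3K79 methyltransferase gene Dot1l had the largest differences, 17917 and 17509 bases, and Psip1 the lowest, 318. Kmt2d was marked at its ends by neither list. Of 10 genes of retinoic acid, a signal that turns on anterior HOX genes in embryos, 6 and 8 were marked (60% and 80.0%). The receptor genes Rara and Rarb had differences of 22936 and 14134 bases, and Aldh1a1 had 611 DMSO bases and 0 EnPGC-1 bases. These lengths grow with the length of the gene. The medians of the difference were 7121, 3229, 5165 and 4388.5 bases for these 4 lists.

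Of the 24 nearest protein-coding neighbours, 3 on each side of each cluster, 6 were marked under DMSO and 21 under EnPGC-1 (25% and 87.5%, beside 41.6% and 72.8% of all genes). Skap1, an adaptor gene of T cells beside HoxB, had the largest difference, 19983 against 681 bases, and Ttll6 the next, 10609 against 2126. Cbx1 was the 1 neighbour with fewer EnPGC-1 bases, 317 against 331. Skap2, at 142817 bp from the HoxA cluster, was marked in neither list.

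Markers of the cells were read the same way. Of 12 T cell genes, 5 were marked under DMSO and 11 under EnPGC-1, with Cd3e and Cd8b1 in both, Cd8a and Lck under EnPGC-1 alone and Cd3d in neither. Runx3 and Cd247 had the largest differences, 24935 and 17511 bases, and Cd3g the lowest, 532. The DMSO share of T cell genes was 41.7%, close to the 41.6% of all genes, and the EnPGC-1 share was 91.7%, beside 72.8% of all genes. The same shares of all genes stand beside the other markers. Of 8 B cell genes, 2 and 6 were marked (25% and 75%), with Pax5 and Blk at 37941 and 11314 bases of difference and Cr2 at -124. The B cell gene Ms4a1 had 0 bases in both lists. Of 9 myeloid genes, 4 and 7 were marked (44.4% and 77.8%), with Csf1r and Itgam at 6513 and 4616 and S100a9 at 0. Of 6 CD4, Treg and NK genes, 3 and 2 were marked (50% and 33.3%), with Zbtb7b and Foxp3 at 9857 and 5109 and Ncr1 at 0. Of 7 stem and progenitor genes, 2 and 5 were marked (28.6% and 71.4%), with Mecom and Flt3 at 14351 and 11618 and Cd34 at 802. Whether other cells contributed to the intervals at HOX genes was not tested.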

How the data were processed

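Chromatin immunoprecipitation with an antibody against H3K27ac, the same with IgG, and input DNA were sequenced by the authors. Their 2 peak lists, 1 per treatment, were used here. Tools, per the submitters' processing notes, were MACS2 2.2.2.20160309, Bowtie 1.1.2, Trimmomatic 0.38, ChIPseeker 11.16.1 and Picard 0.118, and the build is mm10. Parameters, the control and any pooling of samples were not given in the sources used here. The deposited score per peak was taken to be −log10 q (a q-value), since the lowest score was 1.31 in both lists and −log10 of 0.05 is 1.30. Depth differences between treatments can change how many peaks are listed and how wide they are.

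Entries repeating 1 interval were joined, with the highest score kept: 84538 DMSO entries gave 81522 distinct intervals, and 329623 EnPGC-1 entries gave 253423. Genes were the 21631 protein-coding RefSeq genes of assembly GRCm38.p6 on chromosomes 1 to 19 and X, whose coordinates are those of mm10. A gene was called marked when an interval overlapped, by at least 1 bp, the 1 kb on each side of either gene end. No test was possible between 2 single lists. The planned window at the transcription start could be applied only to genes with a strand in the promoter table. The members and gene lists were chosen with earlier results of these data known. All HOX genes could be named, but 1 HOX gene and 1 gene of another list, included in all counts, are not reported here by name. Of every other list, the 2 highest and the 1 lowest by difference in covered length were named, and others were named after their values were seen. Calculations used Python 3.11.15 and numpy 2.4.6. Covered bases and gene-end marking were tested on simulated data, with 0 mismatches in 200 runs each. Alternatives were other score, width and window limits, merging, equal numbers of intervals and wider clusters. Counting an interval only for its nearest gene end was added after the data were seen.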

Additional observations from a re-analysis of the deposited data

How the results depend on the processing

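With only the 81522 highest-scoring intervals of each list, 25 HOX genes were marked under EnPGC-1 (40.5% of all genes). For DMSO this number is the whole list. Hoxa11 and Hoxb3, at the lowest EnPGC-1 score kept, 4.21, were not among them. The ratio of covered bases over the clusters was then 1.80, against 1.65 in the genome. With intervals of at least 500 bp, 16 were marked under DMSO (22.8% of all genes) and the ratio was 5.69, against 5.4004 in the genome. At the transcription start alone, 12 of 22 genes with a known strand were marked under DMSO and 21 under EnPGC-1 (30.4% and 64.6% of all genes with a strand). At either end of the same 22 genes these were 15 and 22, so on the same genes this setting stayed within 1.5 times. The ratio of interval numbers was 2.23, against 3.11 in the genome. The cause of the move in the ratios was not tested. Other settings also stayed within 1.5 times. They gave 19 to 36 genes under DMSO and 30 to 39 under EnPGC-1. The shares of all genes moved as well, from 28.8% to 71.4% under DMSO and from 52.5% to 89.5% under EnPGC-1. Ratios ran from 3.53 to 3.92, the last with intervals merged within 1000 bp, where the genome had 4.40. No paired analysis was possible because each treatment has 1 list with no values per sample, and for the same reason no replicate could be left out. Depth per sample is unknown here, so an interval missing from the DMSO list does not show that the mark was absent.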

Other observations

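Non-coding genes inside the clusters were read the same way. Of 24 long non-coding RNA genes, 16 had an interval within 1 kb of a gene end under DMSO and 23 under EnPGC-1, beside 27.01% and 60.4% of 12697 such genes in the genome. The 1 pseudogene, Gm11539 in HoxB, went the other way: it had a DMSO interval, and the nearest EnPGC-1 interval was 2198 bp away. Hotairm1, a myeloid-associated RNA gene of the HoxA cluster, was 8641 bp from the nearest DMSO interval, whereas EnPGC-1 intervals covered 2011 of its bases. Hotair, whose transcript comes from the HoxC cluster, was 4287 bp from the nearest DMSO interval and had 411 bases covered under EnPGC-1. Haglr, in the HoxD cluster, had an interval in both lists within 1 kb of an end. RNA genes on the opposite strand overlap HOX genes, and ChIP does not separate strands.

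Of the 6 microRNA genes of the clusters, 5 belong to the miR-10 and miR-196 families, whose members lie in different clusters and share a seed; their mature 5p sequences are shown for that reason. The other is Mir615, inside Hoxc5, with all 92 bases covered under EnPGC-1 and the nearest DMSO interval 2255 bp away. Capitals mark the seed, bases 2 to 8, and the sequences come from RefSeq on GRCm38.p6.
mmu-miR-10a-5p: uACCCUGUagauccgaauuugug
mmu-miR-10b-5p: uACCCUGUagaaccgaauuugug
mmu-miR-196a-5p: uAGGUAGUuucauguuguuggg
mmu-miR-196b-5p: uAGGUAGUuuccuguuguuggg
miR-196 is known to target HOX transcripts. Mir196b, between Hoxa9 and Hoxa10, lay wholly within an interval of both lists, with scores of 3.50 under DMSO and 7.05 under EnPGC-1. It was the 1 microRNA gene of the 6 with a DMSO interval within 1 kb, while all 6 had an EnPGC-1 interval there, beside 29.6% and 55.8% of 1228 microRNA genes in the genome. All 68 bases of Mir10b were covered under EnPGC-1, and the nearest DMSO interval was 2416 bp away. For Mir10a, Mir196a-1 and Mir196a-2 the nearest EnPGC-1 intervals were 911, 830 and 720 bp away, and the nearest DMSO intervals 1842, 1089 and 2388 bp. These genes were named after their values were seen.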
